A study of Mus musculus with 6 samples.

Results

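The genes described here are 9 mouse genes for enzymes that oxidise or reduce steroids: 5 of the 3-beta-hydroxysteroid dehydrogenase family (Hsd3b1, Hsd3b2, Hsd3b3, Hsd3b5 and Hsd3b7), the 11-beta-hydroxysteroid dehydrogenase Hsd11b1, the 17-beta-hydroxysteroid dehydrogenases Hsd17b2 and Hsd17b6, and the steroid 5-alpha-reductase Srd5a1. The rule takes them by name. All 9 were among the 47232 gene names with a usable value in every mouse, and 8 of them were among the 18619 genes that passed the filter on low values and were tested. The gene that did not pass was Hsd3b1.

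Expression was measured by RNA-Seq of polyadenylated RNA in unfixed liver that had been flash-frozen, which the paper calls fresh tissue. The laboratory group held 3 male C57BL/6 mice, an inbred strain, aged 17 to 18 weeks. The wild group held 3 outbred house mice that were trapped as adults, of unknown age, and kept for 3 months before they were killed. Wild mouse 1 was male while wild mice 2 and 3 were female, so origin and sex differed together in part. By the paper, the laboratory specimens were prepared longer before the sampling of fixed tissue than the wild specimens. Housing, age, strain and time of preparation therefore cannot be told apart from origin. Wild mice 1 and 2 came from one trapping site and wild mouse 3 from another. No allele or drug was given for either group.

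Hydroxysteroid dehydrogenases move hydrogen between a steroid and a nicotinamide cofactor, and so turn a hydroxyl group into a ketone or back. The 5-alpha-reductases remove a double bond from the first ring of testosterone, corticosterone and related steroids, a step that cannot be undone in the body. The liver uses these enzymes mainly to inactivate circulating steroids, to regenerate active glucocorticoid and to build bile acids, and in mice several of them are textbook examples of genes with unequal expression in male and female liver.

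The unit is FPKM, a level that is corrected for how long a transcript is and how much of the library was read, and that allows genes to be set against each other. The second scale is zFPKM, a gene's log2 FPKM measured from the peak of that mouse's distribution over genes, in units of a fitted SD. The peaks (modes) ran from 0.49 to 2.51 and the SDs from 2.51 to 3.12 on the log2 scale, so the scales order mice differently for some genes. Read counts were not used here, depth is unknown, and the precision rests on 3 mice a group. In a principal component analysis, laboratory mouse 3 and wild mouse 1 stood apart from the others on the second component (32.5% of the variance). Xist reached 7.18 FPKM and 40.6 FPKM in the wild females and at most 0.0506 FPKM in the 4 males, which matched the labelled sexes. Of 8 kidney markers 7 were listed at 0 in every mouse, and of 9 measured markers of adrenal or gonad 4 were listed at 0 in every mouse.

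Hsd11b1 was the most abundant of the 9 genes in every mouse, and Hsd3b1 the least in all but wild mouse 2, where Hsd3b5 was lower. Hsd11b1 ranked between 60 and 161 among the tested genes when these were ordered by FPKM within a mouse. Hsd3b3, Hsd3b7, Hsd17b2 and Hsd17b6 lay between 30.5 FPKM and 316 FPKM in all 6 mice. Hsd3b5 and Srd5a1 had the lowest values among the 8 tested members in the wild females, where they were at most 0.148 FPKM and 4.25 FPKM.

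**Figure D1:**
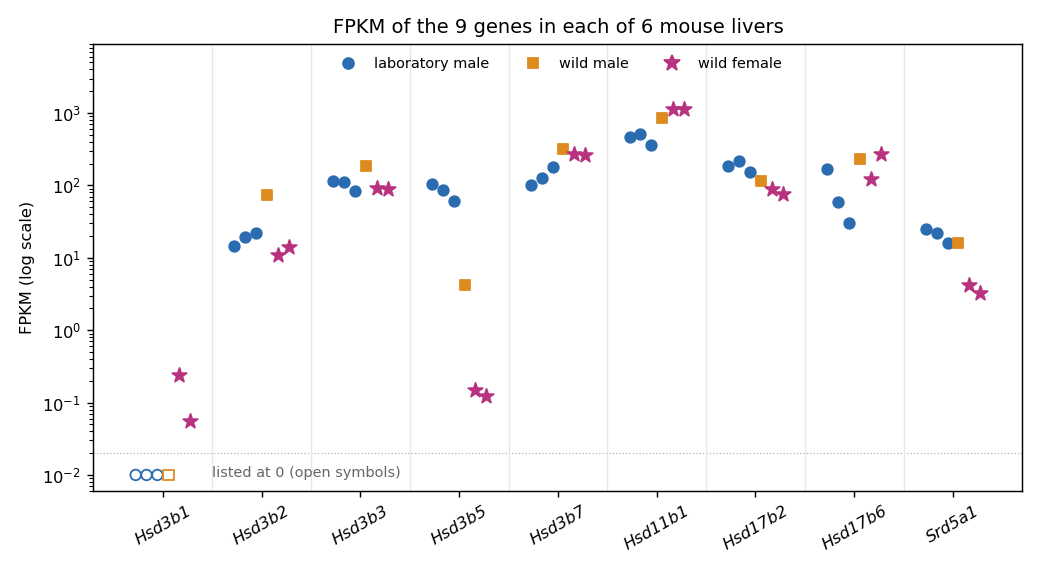
FPKM on a log axis for each of the 9 genes, with 1 symbol per mouse: circles for 3 laboratory males, a square for the wild male and stars for 2 wild females, and open symbols for values listed at 0. Hsd3b5 spans from 104 FPKM in laboratory mouse 1 to 0.124 FPKM in wild mouse 3, whereas Hsd3b3 stays between 84.7 FPKM and 185 FPKM.

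The comparison of laboratory with wild mice asked which of these enzymes differed with origin. On zFPKM, 4 of the 8 tested genes passed an adjusted p of 0.05 in limma, against a background of 14.4% of all tested genes. Hsd3b5, Hsd17b2 and Srd5a1 were higher in laboratory mice, where 7.17% of all genes were called in that direction. Hsd17b6 was higher in wild mice, a direction in which 7.28% of all genes were called. The fit shrank every gene's spread fully to the value expected at its level, with an infinite prior, so that a gene's own scatter did not enter its p. When limma was run without that trend the prior had 3.74 degrees of freedom and Hsd3b5 alone stayed below 0.05, against 4.27% of all genes. With sex as a covariate 2 of the 8 genes were called (Hsd3b5 and Hsd17b2, both higher in laboratory mice), against 7.38% of all genes (6.04% in that direction and 1.34% in the other). On log2(FPKM + 0.1) 5 of the 8 were called, against 46.1% of all genes: Hsd3b5, Hsd17b2 and Srd5a1 were higher in laboratory mice, as were 8.19% of genes, and Hsd3b7 and Hsd11b1 were higher in wild mice, as were 37.9%. Those same 5 genes had no overlap between the groups on zFPKM, as had 28.3% of all genes (14.2% higher in laboratory mice and 14.1% in wild mice). The median difference of the 8 genes was 0.16 zFPKM, beside 0.0050 for all tested genes.

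Hsd3b5 was far higher in laboratory mice than in wild mice. Its enzyme works in mouse liver mainly as a 3-ketosteroid reductase, and it is known as a gene of adult male liver that follows the male pattern of growth hormone release. It measured 104 FPKM, 87.3 FPKM and 60.3 FPKM in the laboratory males, 4.21 FPKM in the wild male and 0.148 FPKM and 0.124 FPKM in the wild females. The groups did not overlap, and within the wild group the male stood well above both females. Among all tested genes, 55.8% had no overlap on FPKM, 12.1% being higher in every laboratory mouse and 43.7% higher in every wild mouse.

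The laboratory mean of Hsd3b5 (84.0 ± 22.2 FPKM, SD, n = 3) was 56.3 times the wild mean (1.49 ± 2.35 FPKM, SD, n = 3), 19.96 times the value of the wild male and about 619 times the mean of the wild females, a ratio that rests on values near 0. The zFPKM difference was 2.83 (SE 0.21, limma adjusted p = 7.46e-40), and without the variance trend the same difference had an SE of 0.38 and a limma adjusted p of 0.00915. With sex as a covariate the difference was 1.95 (SE 0.25, limma adjusted p = 0.00135), which is the laboratory males set against the wild male. In a fit of the 4 males alone no gene in the whole table was called by limma, although 3120 genes, 2 of the 9 among them, had an unadjusted p under 0.05, and the limma adjusted p of Hsd3b5 was 0.166. An exact two-sided permutation test of log2 FPKM gave p = 0.1, the smallest value that 3 mice against 3 allow.

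At the low end the values of Hsd3b5 rest on few reads. The upper bound that Cufflinks gives for its FPKM lay 85.6% and 116% above the estimate in the wild females, beside 16.8% in the wild male and at most 4.95% in laboratory mice 2 and 3. The lower bound was 0.0212 FPKM in wild mouse 2 and 0 in wild mouse 3, so Hsd3b5 could not be told from 0 in the latter. By rank within a mouse, Hsd3b5 went from between 496 and 760 in the laboratory males to 6695 in the wild male, and to 14147 and 14820 in the wild females.

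Hsd3b5 lies in a cluster of Hsd3b genes on mouse chromosome 3. The 6 that were analysed are all on the minus strand and span chr3:98499071-98859794 (GRCm38, 361 kb). In the order of the coordinates these are Hsd3b4, Hsd3b5, Hsd3b2, Hsd3b3, Hsd3b6 and Hsd3b1. Hsd3b5 itself is at chr3:98618636-98645534, with 3 exons in its only coding transcript, Hsd3b2 at chr3:98711107-98724543, Hsd3b3 at chr3:98741476-98764540 and Hsd3b1 at chr3:98842356-98859794. The longest coding transcripts of Hsd3b2 and Hsd3b3 were identical at 93.4% of their aligned bases, those of Hsd3b5 and Hsd3b3 at 76.3%, and those of Hsd3b5 and Hsd3b4 at 92.8%. Of all 100-base stretches of the Hsd3b5 transcript, 7.79% occur unchanged in another gene, and 14.9% of those of Hsd3b3 do, mostly in Hsd3b2. How the authors divided such reads between the copies is not given in the sources used here, so values of the neighbouring genes carry that uncertainty.

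Hsd3b5 and Hsd3b3 are cluster genes of related sequence, with Hsd3b2 between them. They had the most and one of the least unequal levels between the groups. For this reason the 250 bases before a RefSeq start site of Hsd3b5 (chr3:98645535-98645784) and of Hsd3b3 (chr3:98763129-98763378) are shown. Both are on the minus strand and are printed 5′ to 3′ from RefSeq's GRCm38.p6 annotation, with capitals for the bases that are identical in a local alignment of the pair. The Hsd3b3 window is 1 of 2 in the table, and it lies inside the gene's GENCODE interval, which begins farther upstream:
Hsd3b5: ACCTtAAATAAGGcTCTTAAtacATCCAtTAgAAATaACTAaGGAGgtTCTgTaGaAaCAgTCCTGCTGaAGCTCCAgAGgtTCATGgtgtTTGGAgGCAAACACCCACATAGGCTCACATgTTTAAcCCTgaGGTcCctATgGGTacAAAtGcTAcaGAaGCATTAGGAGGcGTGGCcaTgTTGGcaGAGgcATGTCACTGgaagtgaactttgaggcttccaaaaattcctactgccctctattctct
Hsd3b3: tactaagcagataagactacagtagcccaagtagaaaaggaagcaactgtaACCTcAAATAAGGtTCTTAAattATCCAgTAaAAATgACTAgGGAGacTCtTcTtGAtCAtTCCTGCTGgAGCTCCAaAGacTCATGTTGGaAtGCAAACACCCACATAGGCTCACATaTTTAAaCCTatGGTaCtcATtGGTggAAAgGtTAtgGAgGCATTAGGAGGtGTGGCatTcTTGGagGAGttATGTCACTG
The alignment covered 204 columns, of which 154 were identical (75.5%). The same window of Hsd3b2 gave only a 31-column alignment with that of Hsd3b5 and a 15-column alignment with that of Hsd3b3, although its transcript is closer to Hsd3b3 than the Hsd3b5 transcript is.

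Hsd3b3 was the highest of the 6 analysed genes of the cluster in every mouse. The enzyme oxidises and isomerises 3-beta-hydroxysteroids and is known in liver and kidney. It measured 114 FPKM, 112 FPKM and 84.7 FPKM in the laboratory males, 185 FPKM in the wild male and 93.2 FPKM and 88.0 FPKM in the wild females. The wild male was the highest and the groups overlapped. The zFPKM difference was 0.18 (SE 0.12, limma adjusted p = 0.352). Its 95% interval without the variance trend ran from -0.27 to 0.64, so that a difference of either sign is allowed. It was called in opposite directions in other settings, at -0.85 with sex as a covariate on log2(FPKM + 0.1) (limma adjusted p = 0.0336) and at 0.36 zFPKM without laboratory mouse 3 and wild mouse 1 (limma adjusted p = 0.00745).

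Hsd3b2, whose enzyme carries out the same reaction and is best known in kidney, was set apart by the wild male. It measured 14.6 FPKM, 19.6 FPKM and 21.8 FPKM in the laboratory males, 73.4 FPKM in the wild male and 10.9 FPKM and 14.1 FPKM in the wild females. The wild male was above all the others and the remaining mice of both groups overlapped. The zFPKM difference was 0.13 (SE 0.16, limma adjusted p = 0.666), and on log2(FPKM + 0.1) it was -0.28, the opposite sign. With sex as a covariate on log2(FPKM + 0.1) the difference was -1.99 (SE 0.29, limma adjusted p = 0.00424; 32.4% of all genes were called), so the laboratory males were below the wild male, but on zFPKM the corresponding difference of -0.32 had a limma adjusted p of 0.314. The wild male is 1 animal and 1 of the mice that stood apart. Without it and laboratory mouse 3 the laboratory mice were higher by 0.42 zFPKM (SE 0.052, limma adjusted p = 0.005998; 30.5% of all genes were called), in a comparison of males with females only.

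Hsd3b1, the form known from adrenal and gonad, was listed at 0 in the 3 laboratory males and the wild male. It measured 0.237 FPKM and 0.0548 FPKM in the wild females. The lower Cufflinks bound was 0.0691 FPKM in wild mouse 2 and 0 in wild mouse 3. The zFPKM of Hsd3b1 exceeded -3 in only those 2 mice, so it was not tested.

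Within the summed FPKM of these 6 genes, Hsd3b5 made up 44.6%, 39.5% and 35.9% in the laboratory males, 1.57% in the wild male, and 0.139% and 0.119% in wild mice 2 and 3. The share of Hsd3b3 was 48.8% to 50.8% in the laboratory males, 69.1% in the wild male, and 87.6% and 84.4% in wild mice 2 and 3. Without Hsd3b5 the sum was 129 FPKM, 134 FPKM and 108 FPKM in the laboratory males and 106 FPKM and 104 FPKM in the wild females, while the wild male reached 263 FPKM. The laboratory males and wild females thus lay close together once Hsd3b5 was left out, and the wild male lay above them.

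**Figure D2:**
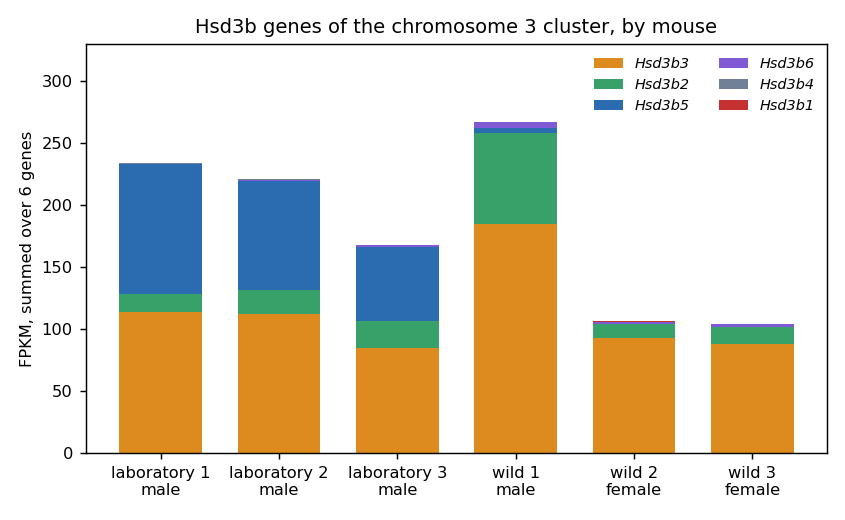
FPKM of the 6 analysed Hsd3b genes of the chromosome 3 cluster, stacked for each mouse from 0. Hsd3b5 is a large block in the 3 laboratory males (35.9% to 44.6% of the sum) and at most 1.57% of the sum in the wild mice, and Hsd3b2 is largest in the wild male (27.5%).

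Hsd3b4 and Hsd3b6, which are no members, were at most 4.69 FPKM in any mouse. Hsd3b6 was above Hsd3b5 in all 3 wild mice. Hsd3b4, the nearest relative of Hsd3b5, measured 0.212 FPKM, 0.468 FPKM and 0.160 FPKM in the laboratory males, 0.165 FPKM in the wild male and 0.00912 FPKM in wild mouse 3, and it was listed at 0 in wild mouse 2. The zFPKM difference of Hsd3b4 was 1.49 (SE 0.47, limma adjusted p = 0.0154), and the adjusted p was 0.458 with sex as a covariate. Every 100-base stretch of the Hsd3b4 transcript also occurs in another annotated gene, so its value is uncertain. Hsd3b6 measured 0.565 FPKM to 1.43 FPKM in the laboratory males, 4.69 FPKM in the wild male and 1.93 FPKM and 2.02 FPKM in the wild females, with a limma adjusted p of 0.621 on zFPKM.

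Hsd3b7 is the family member that acts on C27 sterols early in bile acid synthesis, and it stands outside the cluster at chr7:127800609-127803802 on the plus strand. It measured 100 FPKM, 126 FPKM and 180 FPKM in the laboratory males, 316 FPKM in the wild male and 274 FPKM and 264 FPKM in the wild females. Every wild mouse was above every laboratory mouse. On log2(FPKM + 0.1) the difference was -1.11 (SE 0.22, limma adjusted p = 0.00537), where 37.9% of all tested genes were called in that direction and the median of all genes was -0.47. After centring every mouse on its median gene it was -0.37 (limma adjusted p = 0.224, where 47.4% of all genes were called), and on zFPKM -0.12 (SE 0.11, limma adjusted p = 0.560). Hsd3b7 also shares 93.7% of its 100-base stretches with an overlapping gene model on the same strand, Gm49388.

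Hsd11b1, at chr1:193221640-193264049 on the minus strand, encodes the enzyme that regenerates corticosterone from its inactive 11-keto form. It measured 465 FPKM, 509 FPKM and 358 FPKM in the laboratory males, 865 FPKM in the wild male and 1146 FPKM and 1154 FPKM in the wild females. Every wild mouse was above every laboratory mouse, and both females were above the wild male. The wild mean (1055 ± 165 FPKM, SD, n = 3) was 2.37 times the laboratory mean (444 ± 77.6 FPKM, SD, n = 3). The difference was -1.25 on log2(FPKM + 0.1) (SE 0.21, limma adjusted p = 0.00233), -0.51 after centring every mouse on its median gene (limma adjusted p = 0.217) and -0.17 on zFPKM (SE 0.097, limma adjusted p = 0.248). On zFPKM the wild male, at 2.69, and laboratory mouse 1, at 2.69, were almost level. The higher FPKM in wild mice was of the same direction as the shift of the median gene. Relative to that shift the call depended on the scaling, since after quantile normalization Hsd11b1 was called higher in wild mice (-0.32, limma adjusted p = 0.0106).

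Hsd17b2, whose enzyme oxidises oestradiol and testosterone to weaker steroids, was about 2-fold higher in laboratory mice. It lies at chr8:117700982-117759030 on the plus strand. It measured 184 FPKM, 218 FPKM and 152 FPKM in the laboratory males, 115 FPKM in the wild male and 90.4 FPKM and 76.7 FPKM in the wild females. The groups did not overlap. On FPKM the wild male lay between the laboratory mice and the females, whereas on zFPKM it lay between the females (1.61 against 1.66 and 1.56). The laboratory mean was 1.97 times the wild mean and 1.61 times the wild male. The zFPKM difference was 0.59 (SE 0.12, limma adjusted p = 2.07e-05), and also 0.59 with sex as a covariate (SE 0.15, limma adjusted p = 0.0310). The median difference of all tested genes was 0.0050 in the first of these fits and 0.27 in the second. Without the variance trend the limma adjusted p of Hsd17b2 was 0.123, with a 95% interval from 0.16 to 1.02. On log2(FPKM + 0.1) its difference was 0.98 (SE 0.20, limma adjusted p = 0.00602), against the direction of the median gene. With sex as a covariate on that scale Hsd17b2 was not called (0.67, SE 0.25, limma adjusted p = 0.0853), while 32.4% of all genes were.

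Srd5a1, the main 5-alpha-reductase of liver, was higher in the laboratory males than in the wild females, with the wild male near the laboratory males. It lies at chr13:69573449-69611485 on the minus strand. It measured 24.8 FPKM, 22.1 FPKM and 16.0 FPKM in the laboratory males, 16.2 FPKM in the wild male and 4.25 FPKM and 3.25 FPKM in the wild females. On FPKM the wild male was just above laboratory mouse 3, so the groups overlapped, whereas on zFPKM the lowest laboratory value (0.75) was above the wild male (0.56). The laboratory mean was 5.59 times the mean of the wild females and 1.30 times the wild male. The zFPKM difference was 0.83 (SE 0.18, limma adjusted p = 9.68e-05). With sex as a covariate it was 0.54 (SE 0.24, limma adjusted p = 0.204), and without the variance trend the adjusted p was 0.1096. Of the 100-base stretches of its transcript 14.9% also lie in another gene model, Gm17108.

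Hsd17b6, at chr10:127990931-128007648 on the minus strand, encodes an enzyme of the retinol dehydrogenase type that oxidises androstanediol and other 3-alpha-hydroxysteroids. It measured 168 FPKM, 58.6 FPKM and 30.5 FPKM in the laboratory males, 231 FPKM in the wild male and 124 FPKM and 273 FPKM in the wild females. The groups overlapped because laboratory mouse 1 was above wild mouse 2. Among the 3 inbred males the highest value was 5.51 times the lowest, and the zFPKM SD of Hsd17b6 in that group (0.55) was larger than that of 83.7% of tested genes. The other 7 tested members had laboratory SDs between 0.082 and 0.31. The zFPKM difference of Hsd17b6 was -0.33 (SE 0.12, limma adjusted p = 0.0459), and the SE from its own scatter was 0.34. Of its 100-base stretches 10.5% occur unchanged in another gene. Without the variance trend the adjusted p was 0.575, and without laboratory mouse 3 the difference was -0.053 (limma adjusted p = 0.846). The call was also lost without laboratory mouse 2 (limma adjusted p = 0.142), wild mouse 1 (0.375) or wild mouse 3 (0.461).

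**Figure D3:**
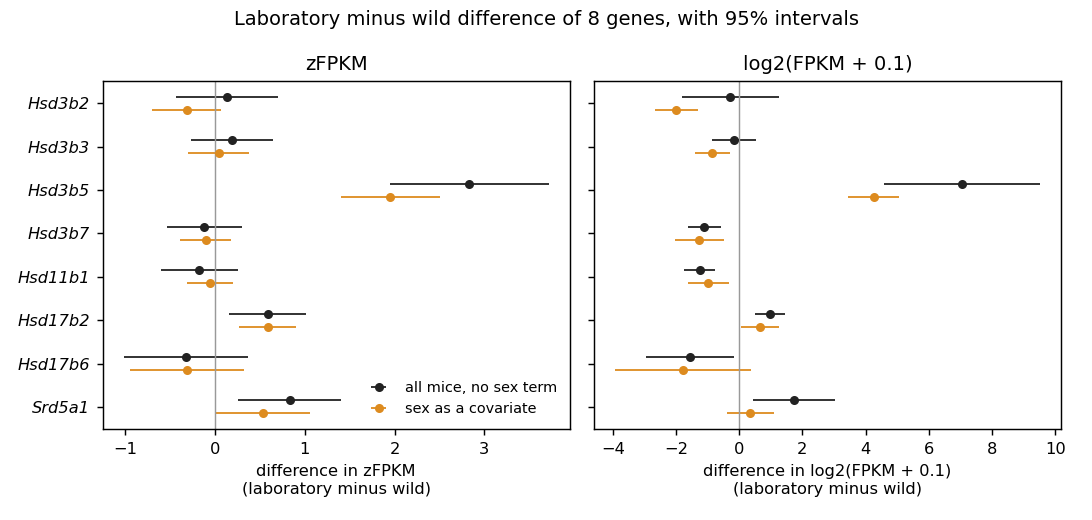
Laboratory minus wild difference of the 8 tested genes with 95% intervals, on zFPKM without the variance trend (left, black) and on log2(FPKM + 0.1) (right, black), and the same with sex as a covariate (orange; on zFPKM with the trend). Hsd3b5 lies above 0 in all 4 settings, and Hsd11b1 and Hsd3b7 lie below 0 with intervals clear of 0 on log2(FPKM + 0.1) only.

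The females were compared with the male within the wild group, through the sex term of a fit on all 6 mice, because several of these enzymes are known to differ between male and female liver. None of the 8 genes passed an adjusted p of 0.05 on zFPKM in limma, where 0.376% of all tested genes did, and 2 of the 8 (Hsd3b5 and Hsd3b2) had an unadjusted p under 0.05, as did 2022 of all tested genes. On log2(FPKM + 0.1) limma called those 2 genes, against 0.424% of all genes. The contrast rests on 1 male, which was also 1 of the mice that stood apart, so the values are descriptions of 3 animals.

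Hsd3b5 in the wild male was about 31.0 times the mean of the wild females, and its sex term was -1.32 zFPKM (SE 0.27, limma adjusted p = 0.0622) and -4.19 on log2(FPKM + 0.1) (limma adjusted p = 0.00992). Hsd3b2 in the wild male was 5.88 times the mean of the wild females, with a sex term of -0.67 zFPKM (SE 0.19, limma adjusted p = 0.196) and -2.56 on log2(FPKM + 0.1) (limma adjusted p = 0.0345). Srd5a1 in the wild male was 4.31 times that mean, with a sex term of -0.45 zFPKM (SE 0.26, limma adjusted p = 0.511). For these 3 genes both females lay below the male on FPKM.

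Hsd3b3 was 2.04 times higher in the wild male than in the female mean, and Hsd17b2 1.37 times and Hsd3b7 1.17 times. On FPKM, Hsd11b1 was the only tested member with both females above the male, at 1.33 times its value, and on zFPKM both females were also above the male for Hsd3b7 (2.17 each against 2.15). Hsd17b6 was not ordered by sex, since the wild male lay between the females, and on zFPKM the same held for Hsd17b2. The sex terms of these 5 genes had limma adjusted p between 0.534 and 1 on zFPKM. The median sex term of all tested genes was 0.38 zFPKM, so on that scale a term near 0 was low relative to most genes. On log2(FPKM + 0.1) that median was 0.095, so the shift depended on the scale.

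**Figure D4:**
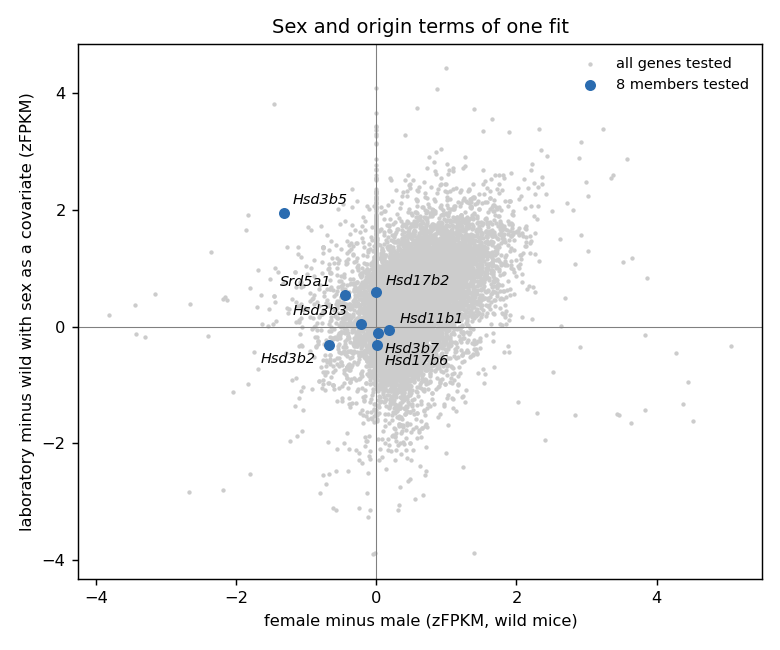
Sex term (x axis, female minus male) against origin term (y axis, laboratory minus wild) of one limma fit on zFPKM, with all 18619 tested genes in grey and the 8 members in blue. Hsd3b5 stands at -1.32 and 1.95, apart from the other members, which lie between -0.67 and 0.18 on the sex axis.

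Known sex-biased liver genes were compared in the same mice. Of 14 female-biased genes, 14 were called higher in wild mice (median difference -3.47 zFPKM), beside 7.28% of all genes, and 10 higher in females. With sex as a covariate 10 of the 14 were called higher in wild mice, beside 1.34% of all genes. The summed FPKM of the 14 was 14.1 to 20.9 in the laboratory males, 191 in the wild male, and 8234 and 6399 in wild mice 2 and 3. Of 10 tested male-biased genes, 7 were called higher in laboratory mice, beside 7.17% of all genes, and 1 in wild mice (median difference 0.83 zFPKM). With sex as a covariate 2 of the 10 were called higher in laboratory mice, beside 6.04% of all genes, and 0 in wild mice. The sex term called 5 of the 10 higher in the male and 1, Ugt2b1, higher in females (1.33 zFPKM, limma adjusted p = 0.00606). The summed FPKM of the 10 was 1282 to 1980 in the laboratory males, 1705 in the wild male, and 327 and 343 in wild mice 2 and 3. Hsd3b5 differed from that sum in the wild male, where it was at 4.21 FPKM against 60.3 FPKM or more in the laboratory males. So did Ugt2b1 of that list, at 6.57 FPKM in the wild male against 76.4 to 139 FPKM in the laboratory males. Cyp2d9, which weighs most in the sum, was at 655 FPKM in the wild male, within its laboratory range of 528 to 789 FPKM. Sult3a1, the most abundant of the female-biased list, had a zFPKM difference of -4.63 (limma adjusted p = 1.10e-35). That of Cyp2d9, the most abundant of the male-biased list, was 1.13 (limma adjusted p = 2.43e-23). Cyp2d9 was at 43.6 FPKM and 44.3 FPKM in the wild females. Its difference was 0.30 zFPKM with sex as a covariate, and on log2(FPKM + 0.1) it was not called (limma adjusted p = 0.0611). On that scale 2 of the 10 male-biased genes were called higher in laboratory mice, beside 8.19% of all genes, and 1 in wild mice, beside 37.9%. The part of these patterns in the values of the members was not tested.

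Among 12 genes of growth hormone signalling, Socs2, Igf1 and Bcl6 were called higher in laboratory mice, beside 7.17% of all genes. Cux2 and Trim24 were called higher in wild mice, beside 7.28% of all genes. The median difference of the 12 was -0.019 zFPKM. Socs2, Igf1 and Bcl6 kept their calls with sex as a covariate, beside 6.04% of all genes called in that direction. The median difference of all tested genes was 0.27 zFPKM in that fit. Cux2 and Trim24 lost their calls. Bcl6 overlapped between the groups on FPKM (8.60 to 15.1 FPKM in laboratory mice and 2.03 to 13.3 FPKM in wild mice). On log2(FPKM + 0.1) Bcl6 was not called (limma adjusted p = 0.262), whereas Socs2 and Igf1 were, beside 8.19% of all genes. Cux2 measured 0.0808 FPKM in the wild male, within the laboratory range of 0.0499 to 0.0903 FPKM, and 6.10 FPKM and 7.79 FPKM in the wild females, and its sex term was called (2.70 zFPKM, limma adjusted p = 0.0254). Ghr, the receptor and the most abundant of them, had a difference of 0.022 (limma adjusted p = 0.936). Of 9 tested glucocorticoid targets, 2 were called, both higher in wild mice, beside 7.28% of all genes, with a median of -0.22 zFPKM. With sex as a covariate 1 was called higher in wild mice, beside 1.34% of all genes. The most abundant of the 9 was Pck1, with a difference of -0.22 (limma adjusted p = 0.118).

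Other steroid enzymes that were called were all higher in wild mice, with Hsd3b4 the exception. Of 7 other tested Hsd17b genes, 4 were called on zFPKM (Hsd17b4, Hsd17b7, Hsd17b12 and Hsd17b13), all higher in wild mice, beside 7.28% of all genes. The median difference of the 7 was -0.36 zFPKM. Hsd17b13, a lipid droplet protein of liver and the most abundant of them, measured 89.0 FPKM, 108 FPKM and 122 FPKM in the laboratory males, 414 FPKM in the wild male and 394 FPKM and 420 FPKM in the wild females, with a difference of -0.42 zFPKM (SE 0.11, limma adjusted p = 0.00250). The remaining 3 called genes had differences of -0.36 (Hsd17b4, of peroxisomal fatty acid oxidation), -0.71 (Hsd17b7, also of cholesterol synthesis) and -0.45 (Hsd17b12, of fatty acid elongation). Hsd17b2 was called in the opposite direction to these 4 genes. None of the 4 was called with sex as a covariate (limma adjusted p from 0.0952 to 0.268).

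Of 11 tested aldo-keto reductases and retinol dehydrogenases that act on steroids, 7 were called higher in wild mice, beside 7.28% of all genes. None was called higher in laboratory mice, and the median was -0.47 zFPKM. Akr1c6 and Akr1c19 were still called with sex as a covariate, where 1.34% of all genes were called higher in wild mice. Akr1c6, a 17-beta-hydroxysteroid dehydrogenase of liver, measured 138 FPKM, 238 FPKM and 144 FPKM in the laboratory males, 1059 FPKM in the wild male and 816 FPKM and 907 FPKM in the wild females. The difference of Akr1c6 was -0.60 zFPKM (SE 0.10, limma adjusted p = 2.76e-07), and -0.65 with sex as a covariate (limma adjusted p = 0.0160). Akr1d1, the 5-beta-reductase that competes with Srd5a1 for the same steroids, measured 27.5 FPKM to 40.1 FPKM in the laboratory males, 105 FPKM in the wild male and 143 FPKM and 146 FPKM in the wild females, with a difference of -0.44 zFPKM (SE 0.13, limma adjusted p = 0.00903) that was -0.23 with sex as a covariate (limma adjusted p = 0.442). The FPKM of Srd5a1 and Akr1d1 thus ran in opposite directions, with Akr1d1 above Srd5a1 in every mouse. The other called genes were Akr1c13 (-0.83), Akr1c14 (-0.47), Akr1c19 (-0.73), Akr1c20 (-0.85) and Rdh9 (-0.90).

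Cyp17a1, the 17-alpha-hydroxylase of androgen synthesis, which rodent liver also expresses, measured 1.78 FPKM, 2.01 FPKM and 4.93 FPKM in the laboratory males, 96.9 FPKM in the wild male and 105 FPKM and 40.0 FPKM in the wild females. All wild mice, of both sexes, were above all laboratory mice. Its difference was -1.41 zFPKM (SE 0.17, limma adjusted p = 4.16e-14), and -1.44 with sex as a covariate (limma adjusted p = 0.00271). Of 7 genes of steroid hormone synthesis listed, only it and Star were tested.

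Nr3c1, the glucocorticoid receptor and the most abundant steroid receptor tested, had a difference of -0.28 zFPKM (limma adjusted p = 0.418). The other 5-alpha-reductases were not called on zFPKM: Srd5a2 measured 0.418 FPKM to 0.647 FPKM in laboratory mice and 0.845 FPKM to 1.88 FPKM in wild mice (limma adjusted p = 0.778, but 0.0396 on log2(FPKM + 0.1), where it was higher in wild mice), and Srd5a3 measured 1.502 FPKM to 3.49 FPKM and 2.38 FPKM to 3.77 FPKM (limma adjusted p = 0.860). Hsd11b2, the enzyme that runs opposite to Hsd11b1, was listed at 0 in every mouse. H6pd, which supplies the NADPH that Hsd11b1 uses, was listed at more than one placement and was not tested. At its alternate placement it measured 14.6 FPKM, 14.0 FPKM and 13.2 FPKM in the laboratory males, 53.5 FPKM in the wild male and 62.5 FPKM and 49.2 FPKM in the wild females. On chromosome 4 it measured 23.8 FPKM and 22.3 FPKM in laboratory mice 2 and 3, 51.6 FPKM in the wild male and 50.6 FPKM and 61.2 FPKM in the wild females. At both placements the listed wild mice were all above the listed laboratory mice on FPKM, as for Hsd11b1 and for 43.7% of all tested genes.

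**Figure D5:**
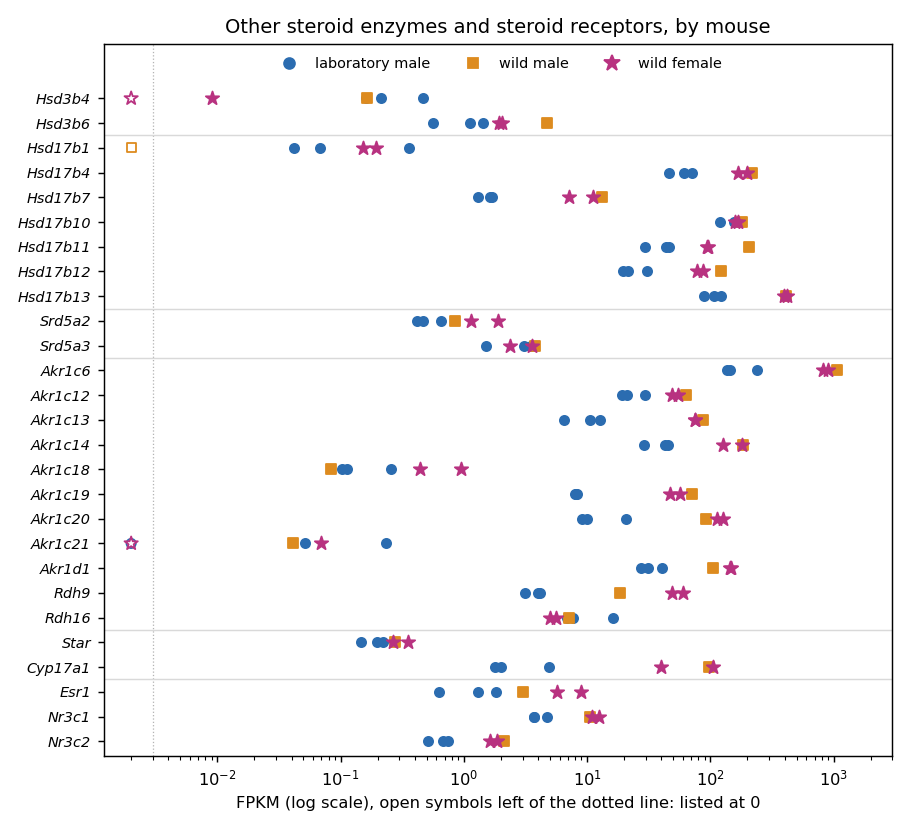
FPKM on a log axis of other tested steroid enzymes and of 3 steroid receptors, with symbols as in the plot of the 9 genes and lines between groups of genes. Hsd17b4, Hsd17b12, Hsd17b13, Akr1c6 and Cyp17a1 lie higher in all 3 wild mice than in any laboratory mouse, for example 96.9 FPKM, 105 FPKM and 40.0 FPKM against at most 4.93 FPKM for Cyp17a1.

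Of 11 tested genes of bile acid synthesis, the pathway that Hsd3b7 serves, 4 were called, all higher in wild mice, beside 7.28% of all genes in that direction, and the median was -0.036 zFPKM. None of them was called by limma with sex as a covariate. Scp2, the most abundant of them, had a difference of 0.25 (limma adjusted p = 0.0553). Hsd3b7 was not called on zFPKM.

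Markers of hepatocytes near the central vein also differed, 6 of 9 being called higher in wild mice, beside 7.28% of all genes. With sex as a covariate 2 were called, beside 1.34%. The laboratory mice summed to 577 to 1017 FPKM and the wild mice to 4723 to 5247 FPKM. Cyp2e1 alone was 242 to 519 FPKM and 3229 to 3650 FPKM of these sums. Of 8 markers of hepatocytes near the portal vein 1, Ass1, was called, higher in wild mice. Their sums were 1847 to 2505 and 4731 to 5765 FPKM, of which Ass1 alone was 864 to 1254 and 2696 to 3381 FPKM. Fewer cells of a type and less RNA per cell cannot be told apart in bulk tissue. Sums of bile duct markers were 29.7 to 64.6 FPKM in laboratory mice and 12.2 to 27.6 FPKM in wild mice, and those of Kupffer cell markers 28.0 to 36.0 FPKM and 11.5 to 110 FPKM. Endothelial marker sums were 19.4 to 30.2 FPKM and 16.8 to 57.5 FPKM, and stellate cell marker sums 41.1 to 53.7 FPKM and 98.4 to 182 FPKM. Dcn, not called on zFPKM (limma adjusted p = 0.118), was 21.7 to 32.4 FPKM and 62.7 to 112 FPKM of the stellate sums. On FPKM 43.7% of all genes were higher in every wild mouse. Of 6 stellate markers 1, Rgs5, was called higher in wild mice, and Des ran the other way without a call. Of 6 bile duct markers 1, Spp1, was called higher in laboratory mice. No Kupffer or endothelial marker was called. Hepatocyte markers, without Alb and Cps1, which had no usable value, summed to 30511 to 42799 FPKM and 24868 to 27336 FPKM. Of these 7, 3 were called higher in laboratory mice and 2 in wild mice, beside 7.17% and 7.28% of all genes. None of the markers of these liver cell types was at 0 in all 6 mice. The part of cell composition in the members' values was not tested.

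For each called member, the 3 tested genes with the most similar centred zFPKM profile over the 6 mice were found by root mean square difference. For Hsd3b5 the nearest was C730036E19Rik (0.300), then Gm16348 and Pitx3, all 3 listed at 0 in both wild females. For Srd5a1 it was Cox7a1 (0.0479), at 23.8 FPKM, 18.7 FPKM, 17.01 FPKM, 16.7 FPKM, 4.64 FPKM and 2.82 FPKM over laboratory mice 1 to 3 and wild mice 1 to 3, then Spon2 and Znf41-ps. For Hsd17b2 it was Ndufs5 (0.0301), then Gm7332 and Mrps21, and for Hsd17b6 it was C7 (0.121), then Gm13430 and Slc25a40. These are descriptions over 6 mice that fall into groups.

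RefSeq start sites gave a 250-base upstream window for 8 of the 9 genes, 10 windows in all. On either strand, the STAT-type motif TTCNNNGAA was in the windows of Hsd3b1 (122 bases before the start) and Hsd3b7 (21 bases before) and in 7.02% of all 32851 windows of the table. The half-site TGTTCT of steroid receptors was in that of Hsd3b2 alone and in 16.1% of all windows. Neither TATAAA (12.4% of all windows) nor GTTAAT (6.43%) was in any of the 10. These letters were in neither of the printed windows of Hsd3b5 and Hsd3b3, which says nothing about sites elsewhere or of other spelling.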

How the data were processed

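Liver RNA-Seq of 6 mice was used. The authors aligned reads to a masked genome with kalign (build GRCm38.p6 per the labels) and calculated FPKM with the Tuxedo pipeline. They then deposited FPKM with zFPKM, a score that places log2 FPKM on each mouse's own distribution. The deposited files hold no counts, so the edgeR test of the study was not repeated.

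Gene names listed once in every mouse were used, less those with a failed or HIDATA estimate in a mouse that had such a status (47232 of 47256). Laboratory mouse 1 came in another format, without an estimate status or Cufflinks bounds, so its failed estimates could not be removed. It listed 49995 entries with 0 repeated names, and each other mouse 52188 entries, 4930 of them with a repeated name. Genes above -3 zFPKM in at least 3 of 6 mice were tested after raising lower values to -3, by limma 3.58.1 in R 4.3.3 (lmFit, eBayes with trend, Benjamini-Hochberg over all tested genes, adjusted p under 0.05). The female minus male term came from a fit of origin and sex. The procedure was tested on simulated data. Differences in log2(FPKM + 0.1) or log2(FPKM + 1) are on that scale, which understates changes of low genes, and the permutation test used log2 FPKM. Nothing says how separate the animals' housing or extraction were. The p-values of the main fit rest on the spread expected at a gene's level and not on that gene's own spread between single livers. For Hsd3b5 the SE of that fit was 0.21 and the SE from its own scatter 0.47. The fit without the trend also used a gene's own spread.

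The members and gene lists were chosen with earlier results of these data known. The genes named are the 9 members, the most abundant tested gene of a list, called steroid enzymes, Xist, and the 3 genes nearest to each called member. The called growth hormone genes, Hsd3b6, Srd5a2, Srd5a3, Hsd11b2, Star, H6pd and Ugt2b1 were named after their values were seen. Hsd17b8, Hsd3b8, Hsd3b9, Cyp21a1, Fkbp5 and Mup20 were not analysed here. The result of 1 other listed gene is not reported here. Positions and transcripts are from GENCODE and upstream windows from RefSeq, both on GRCm38. Pairs were aligned locally in Biopython 1.88.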

Additional observations from a re-analysis of the deposited data

How the results depend on the processing

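With 3 mice a group, unknown depth and sex partly tied to origin, most calls on the members depended on the model. Of the laboratory minus wild calls, 4 of the members and 2690 genes (1335 higher in laboratory mice, 1355 higher in wild mice) passed. Without the variance trend 1 member and 795 genes passed (443 and 352). With sex as a covariate 2 members and 1374 genes passed (249 higher in wild mice). With males only 0 members and 0 genes passed, in limma with 2 members and 3120 genes at an unadjusted p under 0.05, and 0 in each direction. Without a filter on low values limma called 0 members and 23 genes (15 and 8), with 3 members and 3220 genes at an unadjusted p under 0.05. Other scales called more genes: 8242 on log2(FPKM + 1) (6858 higher in wild mice), 8589 on log2(FPKM + 0.1) (7065 higher in wild mice), 8817 with the median of each mouse at 0 (5352 and 3465) and 7282 after quantile normalization (3478 and 3804). Leaving out 1 mouse at a time gave 1420 to 2556 genes, 661 to 1643 higher in laboratory mice and 565 to 1321 higher in wild mice, with 3 to 4 members.

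As settings chosen after seeing the data, leaving out laboratory mouse 3 and wild mouse 1 gave 5676 genes (2711 and 2965) and 6 members, and sex as a covariate on log2(FPKM + 0.1) gave 6040 genes (5025 higher in wild mice) and 5 members. The sign of Hsd3b2 turned on log2(FPKM + 1) (-0.29), on log2(FPKM + 0.1) (-0.28), with sex as a covariate or males only (-0.32) and with sex as a covariate on log2(FPKM + 0.1) (-1.99). That of Hsd3b3 turned on log2(FPKM + 1) and log2(FPKM + 0.1) (-0.16 each) and with sex as a covariate on the latter (-0.85). Hsd3b5 kept its sign in all 18 alternatives and was not called without a filter or with males only. Hsd17b2 and Srd5a1 also kept their signs in all 18 and lost the call in 4 and 5 of them, and Hsd17b6 kept its sign and lost the call in 15. The cause of these changes was not tested, except that males only leaves fewer mice.

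The female minus male term called 70 genes (59 higher in females, 11 in the male) and 0 members. It called 12 without the variance trend (10 and 2) and 0 in the wild mice alone in limma, with 6348 genes and 3 members at an unadjusted p under 0.05. In the male direction it called 26 on log2(FPKM + 0.1) and 41 with the median of each mouse at 0, each with 2 members (Hsd3b5 and Hsd3b2). Leaving out 1 mouse at a time gave 0 to 4944 genes, 0 to 4869 higher in females and 0 to 75 in the male, and 0 to 2 members. Hsd3b5 was called without laboratory mouse 1, 2 or 3 and Hsd3b2 without laboratory mouse 3. The highest count came without laboratory mouse 3 and none were called without wild mouse 2 or 3. The sign turned for Hsd3b7 on log2(FPKM + 0.1) (-0.23) and with the median of each mouse at 0 (-0.45), for Hsd17b6 in the same settings (-0.32 and -0.54) and without wild mouse 3, and for Hsd17b2 without wild mouse 3. Without wild mouse 2 or 3 the term of Hsd17b6 ran from -0.18 to 0.21 and that of Hsd17b2 from -0.054 to 0.052. No paired analysis was possible because the labels give specimen names and no replicate numbers shared between the groups.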
